A study of Mus musculus with 16 samples.

Results

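The genes described are 9 cytoskeleton genes of the mouse: the actins Actb and Actg1, the actin-binding proteins Cfl1 and Pfn1, the tubulins Tuba1b, Tuba1c and Tubb5, and the keratins Krt8 and Krt18. They were chosen by name, with earlier results of these data known, and all 9 were found among the 21887 protein-coding genes that the RefSeq table of GRCm38.p6 places on chromosomes 1 to 19, X and Y. The samples were late 2-cell embryos collected 36 h after fertilization. Control embryos had received H2O as zygotes (water), and the others mRNA of an Hdac1 mutant (mutant). Hdac1 encodes a histone deacetylase; the labels name neither the mutation nor the mouse strain, and do not say that the embryos' own Hdac1 was removed. Chromatin was digested with micrococcal nuclease without crosslinking, and fragments carrying H3K27ac or H3K4me3 were isolated with antibodies and sequenced. The comparison sets the places of the 2 histone marks in embryos given the mutant mRNA against those in water embryos.

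Each mark in each condition is represented by 1 deposited peak list that the labels assign to 2 immunoprecipitation libraries. The lists hold positions only, so sequencing depth and peak height are unknown, no spread between replicates can be given and no test was possible. Every difference below is a difference between 2 lists. The lists held 77349 (water) and 122487 (mutant) H3K27ac peaks, and 86798 and 85780 H3K4me3 peaks. They also differed in the smallest gap they leave between neighbouring peaks, so a stretch may be 1 peak in one list and several in another.

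Actin polymerizes into filaments that carry the cell cortex and the contractile ring of the cleavage divisions. Cofilin, the product of Cfl1, severs actin filaments, and profilin, the product of Pfn1, delivers actin monomers to their growing ends. Alpha- and beta-tubulin pair to form the microtubules of the mitotic spindle. Keratins 8 and 18 pair into intermediate filaments and are known as early epithelial keratins of the outer cells of the blastocyst. H3K4me3 is a mark of promoters, where it can spread over neighbouring sequence in early embryos, and H3K27ac is a mark of active promoters and enhancers.

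At the promoters, H3K4me3 was present in both conditions, whereas H3K27ac differed from gene to gene. RefSeq windows of 300 bp, from 250 bp before a start site to 50 bp from it onward, were matched for 8 of the 9 genes; Actb had no entry. All 8 windows lay wholly under an H3K4me3 peak in water and in mutant embryos, against 51.2% and 49.9% of 32851 promoter windows in all. H3K27ac covered 5 of the 8 in the water list (26.7% of all windows) and 4 in the mutant list (21.8%), and these were not the same windows. The windows of Cfl1, Tuba1b and Tubb5 were wholly covered by H3K27ac in water and had no covered base in mutant embryos. Those of Tuba1c and Krt18 had no covered base in water and were wholly covered in mutant embryos. Actg1 and Pfn1 were covered in both, and Krt8 in neither. So of 5 windows with H3K27ac in water, 3 lacked it in the mutant list, where 44.5% of all windows of that kind (wholly under H3K4me3 in both lists and under H3K27ac in water) did. Of 3 windows without it in water, 2 had it in the mutant list, against 24.2% of all such windows. Neither count was tested, so neither can be read as setting these genes apart from other promoters or as showing them alike.

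Promoter sequences are shown for the 3 genes whose window had H3K27ac in water only, for Tuba1c, which had it in the mutant list only, and for Actg1, which kept it. They come from RefSeq (GRCm38.p6), run 5′ to 3′ on the gene's strand, and lie at chr19:5490205-5490504 (Cfl1, plus strand), chr15:98934341-98934640 (Tuba1b, minus), chr17:35838252-35838551 (Tubb5, minus), chr15:99029641-99029940 (Tuba1c, plus) and chr11:120348446-120348745 (Actg1, minus). Capitals mark matches to 4 motifs, searched on both strands. The GC box, bound by Sp1-type factors, was searched as GGGCGG. The promoter element bound by the factor NF-Y was searched as CCAAT. The element bound by the TATA-binding protein was searched as TATAAA. The fourth was the CArG box, the site of serum response factor. A match on the other strand appears as its reverse complement, and neighbouring GC boxes can share bases.
Cfl1: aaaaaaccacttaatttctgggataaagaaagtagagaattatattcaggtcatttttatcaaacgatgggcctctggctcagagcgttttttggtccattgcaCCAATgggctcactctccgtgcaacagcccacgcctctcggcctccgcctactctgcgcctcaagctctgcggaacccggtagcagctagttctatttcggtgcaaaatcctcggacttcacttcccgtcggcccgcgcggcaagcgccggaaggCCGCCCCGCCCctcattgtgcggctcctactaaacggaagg
Tuba1b: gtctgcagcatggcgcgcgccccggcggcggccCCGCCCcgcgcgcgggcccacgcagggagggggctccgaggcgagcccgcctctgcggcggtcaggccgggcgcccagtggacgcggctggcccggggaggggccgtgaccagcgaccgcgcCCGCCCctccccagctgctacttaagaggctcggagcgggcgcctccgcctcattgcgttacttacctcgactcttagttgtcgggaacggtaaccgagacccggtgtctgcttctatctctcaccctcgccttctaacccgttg
Tubb5: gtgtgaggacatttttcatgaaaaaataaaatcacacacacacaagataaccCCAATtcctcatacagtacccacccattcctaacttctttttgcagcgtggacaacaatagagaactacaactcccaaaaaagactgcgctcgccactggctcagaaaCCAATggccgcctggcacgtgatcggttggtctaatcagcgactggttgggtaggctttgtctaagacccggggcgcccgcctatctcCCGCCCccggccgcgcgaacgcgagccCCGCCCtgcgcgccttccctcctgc
Tuba1c: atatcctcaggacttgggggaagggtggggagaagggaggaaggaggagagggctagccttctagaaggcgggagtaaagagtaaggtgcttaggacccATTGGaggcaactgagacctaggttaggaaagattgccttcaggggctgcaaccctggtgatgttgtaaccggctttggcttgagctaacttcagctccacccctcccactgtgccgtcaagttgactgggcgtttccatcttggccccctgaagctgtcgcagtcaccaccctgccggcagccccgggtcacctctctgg
Actg1: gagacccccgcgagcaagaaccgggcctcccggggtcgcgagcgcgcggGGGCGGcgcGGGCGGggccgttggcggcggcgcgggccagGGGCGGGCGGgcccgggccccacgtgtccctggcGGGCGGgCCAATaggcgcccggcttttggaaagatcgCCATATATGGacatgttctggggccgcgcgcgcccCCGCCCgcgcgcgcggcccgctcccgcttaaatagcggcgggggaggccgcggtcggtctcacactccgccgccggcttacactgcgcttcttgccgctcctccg

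The 5 windows differ widely in composition. Actg1 holds 50 CpG dinucleotides and Tuba1b 39, against a median of 7 over all 32851 windows, whereas Tuba1c holds 7. Cfl1 holds 22 and Tubb5 20. Of the 3 windows not printed, Krt18 holds 17 CpG, Pfn1 14 and Krt8 6. GC boxes were found in Actg1 (6), Cfl1 (2), Pfn1 (2), Tuba1b (2) and Tubb5 (2), and 35.7% of all windows hold at least 1. CCAAT was found in Actg1, Cfl1 and Tuba1c (1 each) and in Tubb5 (2), with 37.4% of all windows holding it. Actg1 alone of the 8 has a CArG box, at positions -90 to -81 from the start site, a motif held by 1.63% of all windows. Krt8 has TATAAA across its annotated start site on both strands, and 13.6% of all windows hold that motif. None of the 4 motifs occurs in the Krt18 window.

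Beyond promoters, the marks were measured within 2 kb of either gene end (gene-end windows), since the gene table gives no strand. H3K4me3 was present at 9 of 9 genes in both conditions, where 74.7% of all coding genes had a peak in water and 72.9% in mutant embryos. H3K27ac was present at 8 of 9 genes in both conditions, against 54.8% and 58% of all coding genes. Krt8 was the gene without it. The median share of the windows under H3K4me3 was 76.8% in water and 100% in mutant embryos, against 37.4% and 40.7% over all coding genes. For H3K27ac the medians were 49.6% and 32.0%, against 5.21% and 7.51%. Since these genes were chosen with such values known, the higher medians are a description of the choice and not a result about the genes. Among genes with a peak in both lists, more bases were under H3K4me3 in the mutant list at 7 of 9 of these genes and at 54.1% of all, and more under H3K27ac at 4 of 8 and at 38.7% of all.

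**Figure D1:**
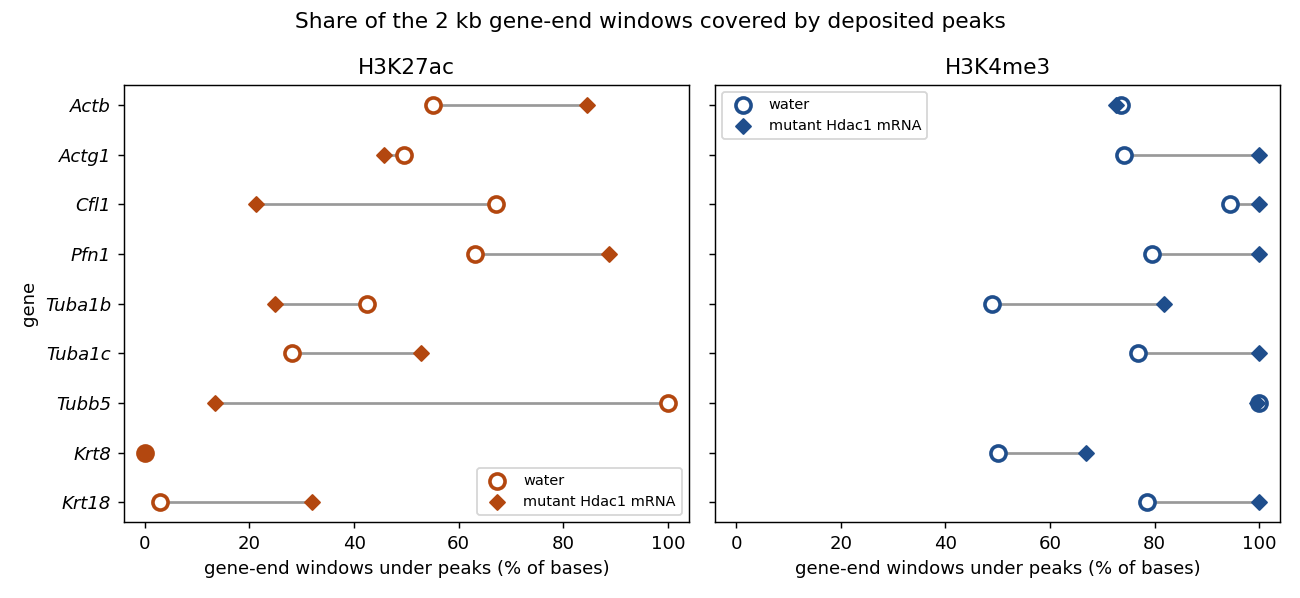
Share of the bases within 2 kb of the gene ends (x axis, percent) that lie under H3K27ac peaks (left) or H3K4me3 peaks (right) for each of the 9 genes, with an open circle for the water list and a diamond for the mutant list. For H3K27ac, Tubb5 goes from 100% to 13.4% and Krt18 from 2.82% to 32.0%, while for H3K4me3 no gene lies below 49.0% in either list.

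The 2 cytoplasmic actins differed from each other. At Actb (chromosome 5, 142903115 to 142907976), H3K27ac covered 4409 of 8000 window bases in water, in 3 peaks of at most 31345 bp. In mutant embryos it covered 6757 bases, in 1 narrower peak of 12365 bp that spans the gene. This difference of 2348 bp became 1089 bp when peaks less than 1 kb apart were joined, and -115 bp with windows of 5 kb. Just outside the 2 kb window, at -7237 to -2103 bp from the lower end of the gene, the water list held a further H3K27ac peak. The mutant list had no H3K27ac peak over that stretch. H3K4me3 covered 5879 bases in water and 5819 in mutant embryos, nearly the same number. The widest H3K4me3 peak at Actb, in contrast, measured 14395 bp in water and 36153 bp in mutant embryos. This difference lay in the splitting of peaks: 95.5% of the mutant peak was also covered in water, by 3 peaks, and joining peaks less than 1 kb apart gave 36430 bp in water and 36153 bp in mutant embryos. The stretch over and beyond the higher-coordinate end of Actb was therefore largely under H3K4me3 peaks in both lists. A second mutant peak of 10920 bp, beyond the lower end of Actb, reached Fbxl18, which encodes an F-box protein. The water list held a peak of 9554 bp there, which also lay over Fbxl18. It ended 2117 bp from Actb, 117 bp short of the 2 kb window, and the mutant peak ended 1585 bp from the gene.

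At Actg1 (chromosome 11, 120345687 to 120348495), the H3K4me3 coverage was 5043 of 6809 window bases in water and all 6809 in mutant embryos. The water list had a peak of 9270 bp over the start site and a peak of 7543 bp beyond the other end of the gene, and left 1766 bases of the windows uncovered. The mutant list had a single peak of 27782 bp. It reached 14787 bp upstream of the start site, as far as Fscn2, a fascin gene whose nearest base lies 11669 bp from Actg1, and 82.1% of it was covered in water. H3K27ac covered 3380 and 3117 bases, with different layouts. In water a peak of 10986 bp lay beyond the gene's 3′ end and had no covered base in mutant embryos. At the start site a water peak of 1407 bp was set against a mutant peak of 3136 bp. H3K27ac at the 2 ends of this gene thus differed in opposite directions, which the total does not show.

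Cfl1 and Pfn1 lie in gene-dense stretches, and their H3K27ac differed in opposite directions. At Cfl1 (chromosome 19, 5490455 to 5494031), H3K27ac covered 5085 of 7577 window bases in water and 1609 in mutant embryos. The water list held a peak of 25674 bp that ran from 23100 bp upstream of the start site to 2573 bp into the gene. Only 18.8% of that peak was covered in the mutant list, and the gene itself had no covered base, its nearest mutant peak lying 991 bp away. A second H3K27ac peak, beyond the 3′ end and over Snx32, measured 11224 bp in water and 13387 bp in mutant embryos. Within 2 kb of the start site, 4001 bases were covered by H3K27ac in water and 899 in mutant embryos. H3K4me3 covered 7164 and 7577 bases and the whole gene in both lists.

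At Pfn1 (chromosome 11, 70651844 to 70656799), H3K27ac covered 5060 of 8000 window bases in water, in peaks of 4198 and 7905 bp, and 7095 in mutant embryos, in 1 peak of 11840 bp. Joining peaks less than 1 kb apart lowered this difference from 2035 to 1326 bp. H3K4me3 covered 6367 bases in water and all 8000 in mutant embryos. The annotated span of Pfn1 overlaps that of Eno3, an enolase gene, so marks over their shared part cannot be assigned to either gene. The start site of Pfn1 in the promoter table, at 70654650, lies inside that span, and the 4001 bp centred on it were covered by H3K27ac for 3623 bases in water and completely in mutant embryos.

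**Figure D2:**
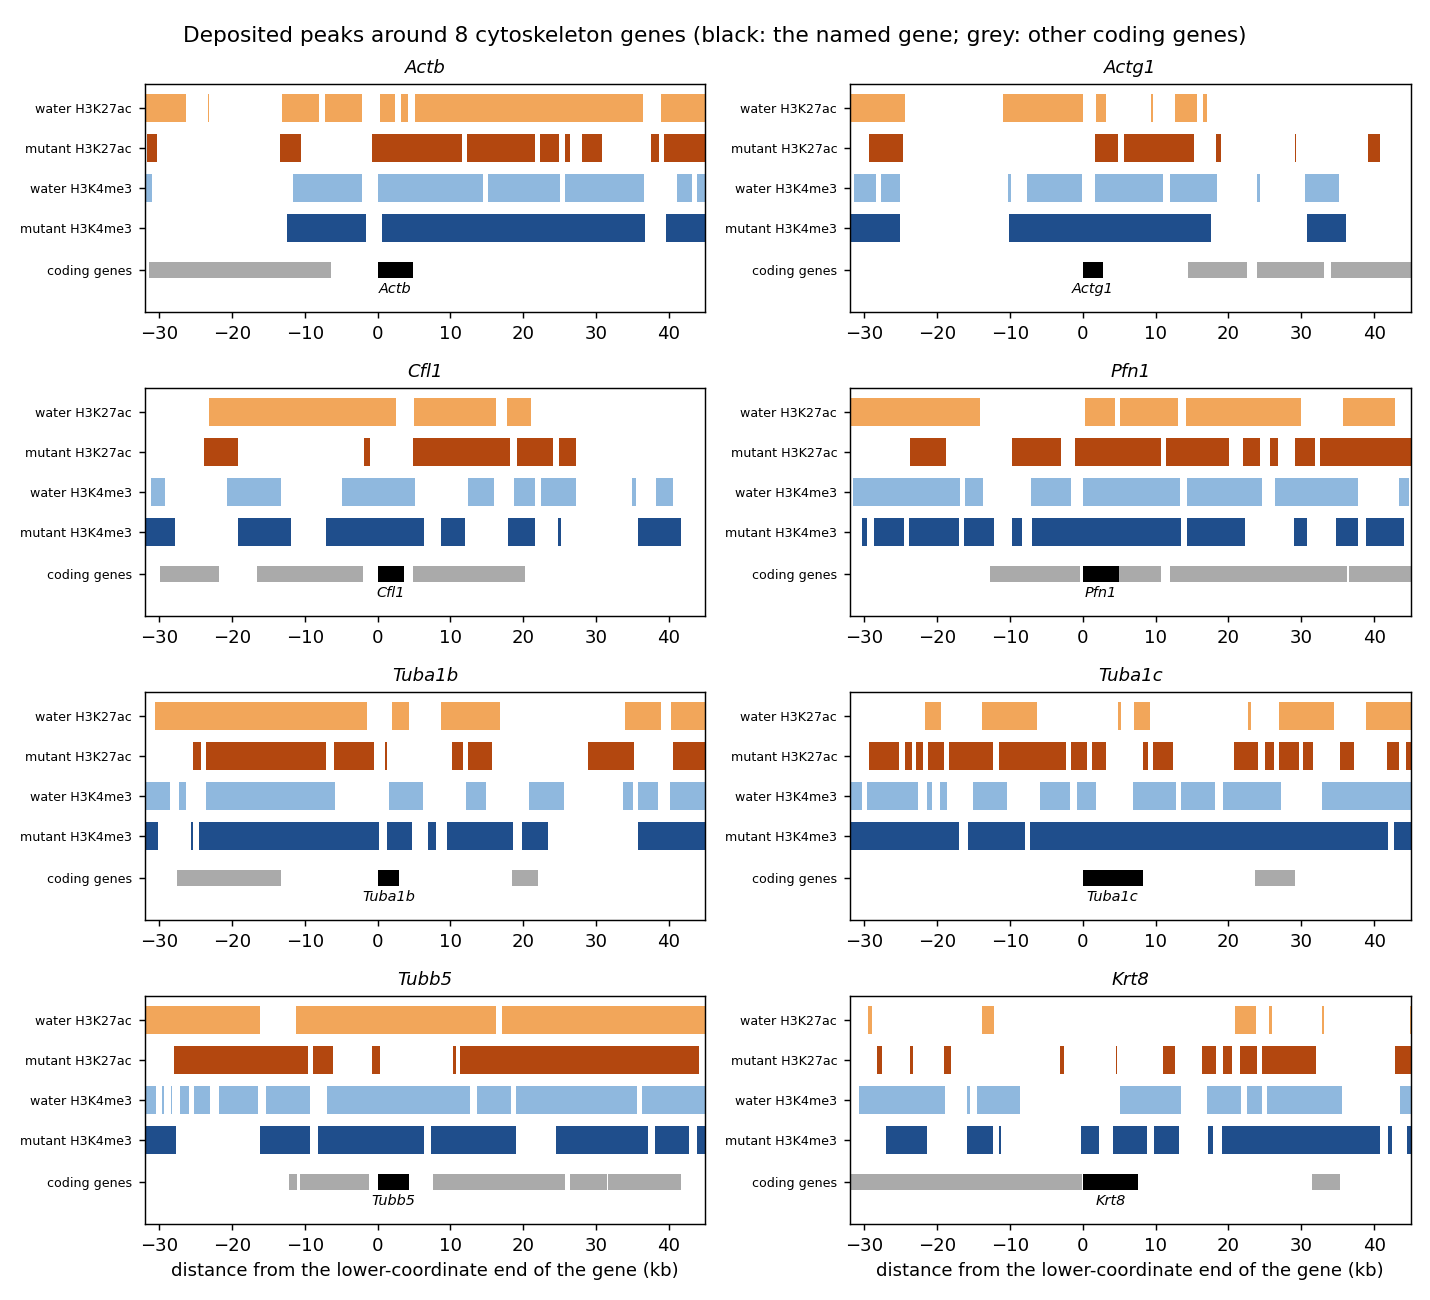
Peaks of the 4 lists (coloured blocks) around 8 of the genes, against the distance in kb from the gene's lower-coordinate end, with the named gene in black and other coding genes in grey. At Tubb5 and Cfl1 most of the gene itself lies under a water H3K27ac block, and little or none of the gene under mutant H3K27ac. At Tuba1c the mutant H3K4me3 list has 1 block of 49222 bp where the water list has several.

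Among the 9 genes, the largest differences in covered bases within the 2 kb windows were at tubulin genes, at Tubb5 for H3K27ac and at Tuba1b for H3K4me3. For H3K4me3 this order depended on the window: over the whole gene with 2 kb on each side the difference was 6070 bp at Tuba1c and 2282 bp at Tuba1b, and with windows of 5 kb it was 6463 and 5095 bp. At Tubb5 (chromosome 17, 35833920 to 35838301), which encodes a widely expressed beta-tubulin, a water H3K27ac peak of 27473 bp covered all 8000 window bases. The mutant list had 1 peak of 1071 bp, at the 3′ end, and no covered base within 2 kb of the start site. Of the span of the water peak, 38.7% was covered in the mutant list, but only 7.10% of the gene itself. H3K4me3 differed little in coverage. It covered 8000 and 7958 bases, and its peak over the gene measured 19750 bp in water and 14562 bp in mutant embryos. The narrower mutant peak ended 1958 bp upstream of the start site, where the water peak went on to 8368 bp. H3K4me3 resumed beyond a gap in the mutant list, and 95% of the water peak was covered there, by 2 peaks.

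At Tuba1b (chromosome 15, 98931429 to 98934390), an alpha-tubulin gene, H3K27ac covered 2956 of 6962 window bases in water and 1732 in mutant embryos. The water list had a peak of 2425 bp over the start site, where the mutant list had none. Inside the gene the mutant list had a peak of 201 bp, close to the smallest width in that list (149 bp). At the 3′ end the difference went the other way: 531 window bases were covered in water, by a peak of 29064 bp, and 1531 in mutant embryos, by a peak of 5507 bp. H3K4me3 covered 3412 and 5694 bases. The peak over the start site was narrower in mutant embryos, with 4703 and 3481 bp. Within the windows it supplied 3412 bases in water and 3481 in mutant embryos. A further 2213 window bases in the mutant list came from a peak of 24779 bp that ran from Lmbr1l, a gene for a membrane receptor protein, to the 3′ end of Tuba1b and ended inside it. In the water list 71.4% of that span was covered, by a peak that stopped short of the Tuba1b windows.

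At Tuba1c (chromosome 15, 99029891 to 99038105), H3K27ac differed the other way. It covered 2253 of 8000 window bases in water, in 1 peak at the 3′ end, and 4223 in mutant embryos, in 4 peaks. The difference of 1970 bp varied with the setting. It was 3661 bp when peaks less than 1 kb apart were joined, 1278 bp with the wider 50% of each list, 329 bp with windows of 1 kb and 7517 bp with windows of 5 kb. Within 2 kb of the start site the water list had 0 and the mutant list 2950 covered bases. H3K4me3 covered 6145 bases in water, in 3 peaks of at most 5888 bp, and all 8000 in mutant embryos, a difference of 1855 bp that the same joining lowered to 870 bp and windows of 1 kb to 262 bp. The mutant peak of 49222 bp ranked 10 by width in its list, and reached 7255 bp upstream and 41966 bp downstream of the start site, over the whole of Prph, the gene of the intermediate filament protein peripherin. In water 69.9% of that span was covered, by 6 peaks. Joining peaks less than 1 kb apart gave 11218 bp in water and 64344 bp in mutant embryos, so the mutant peak was the wider one there too. The neighbouring alpha-tubulin genes Tuba1b and Tuba1c, with closely similar products, thus differed in opposite directions for the total of H3K27ac window bases and in the same direction for H3K4me3. Their coding sequences are similar, and how reads that fit both genes were placed is not given in the sources used here.

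Between Tuba1b and Tuba1c lie 95500 bp that hold Tuba1a, a further alpha-tubulin gene. H3K27ac covered 44.2% of this interval in water and 57.2% in mutant embryos, and H3K4me3 59.2% and 75.6%. At Tuba1a itself (98949847 to 98953501), H3K27ac covered 381 of 7655 window bases in water and 0 in mutant embryos, and H3K4me3 3329 and 5851. The 381 bases were the edge of a water H3K27ac peak of 8133 bp that lay mostly outside the window. Mutant H3K27ac peaks covered part of the same stretch but stopped short of the window. Tuba1a thus resembled Tuba1b in having more H3K4me3 window bases in the mutant list, while its H3K27ac difference lay at the window edge.

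In the water list the keratin pair was the poorest in H3K27ac. Krt8 (chromosome 15, 101996711 to 102004342) had no H3K27ac peak within 2 kb of its ends in either list. The nearest water peak lay 12153 bp from the gene, whereas in the mutant list 151 bases inside the gene were covered, and windows of 5 kb reached mutant peaks. Krt18 (102028216 to 102032026) had a single water peak of 220 bp inside the gene, close to the smallest width in that list (168 bp). In mutant embryos a peak of 7387 bp ran from 6889 bp upstream of the Krt18 start site to 497 bp into the gene. Of its span 3.98% was covered in water.

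H3K4me3 was present at both keratin genes. At Krt8 it covered 4000 of 8000 window bases in water, in a peak of 8378 bp over the start site, and 5346 in mutant embryos, in peaks of 2376 and 4606 bp. The mutant peak over the start site reached 1146 bp upstream, where the water peak reached 5916 bp, and the smaller peak lay at the 3′ end next to Krt78. Of the span of the water peak 83.9% was covered in the mutant list, by 2 peaks. At Krt18 the coverage was 6141 of 7811 bases in water and all 7811 in mutant embryos. The peak there measured 10311 bp in water and 21646 bp in mutant embryos, and 69.0% of the mutant span was covered in water. In the 23873 bp between Krt8 and Krt18, H3K27ac covered 13% in water and 59.4% in mutant embryos, while H3K4me3 covered 78.5% and 73.9%.

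**Figure D3:**
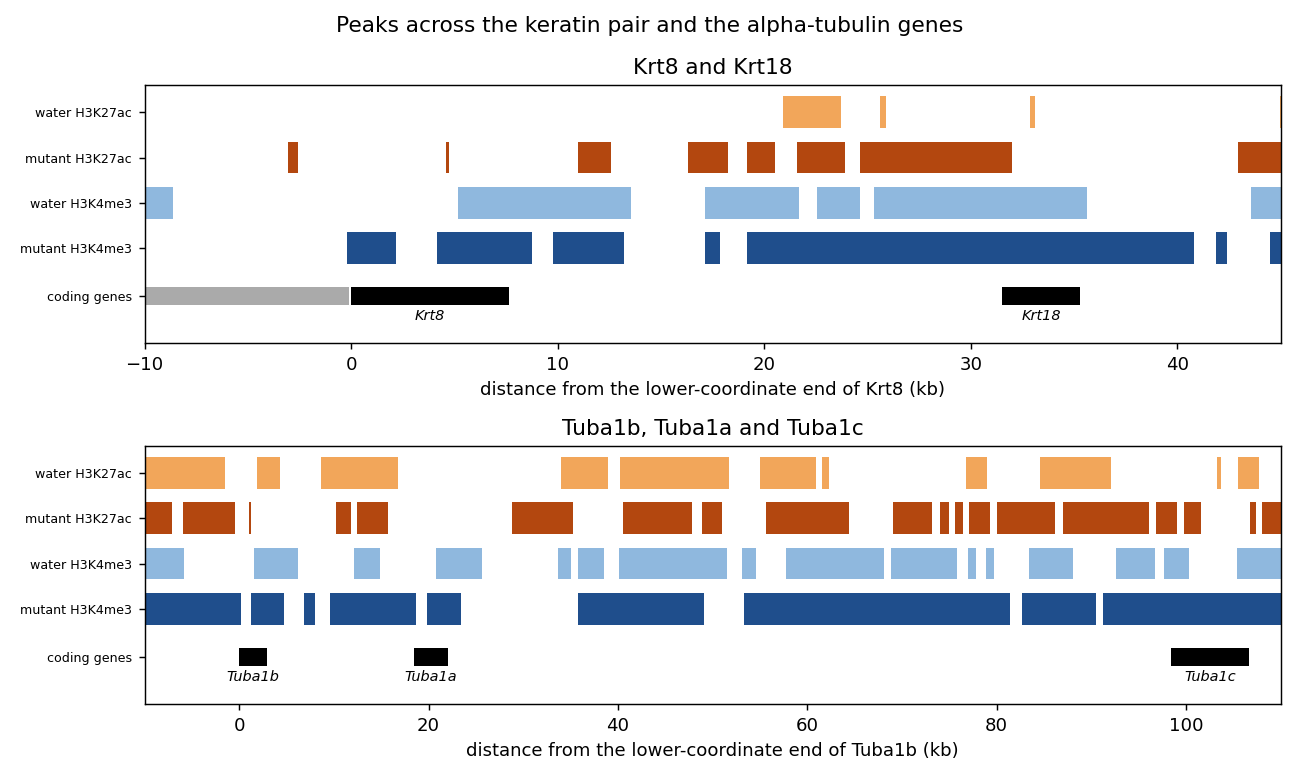
Peaks of the 4 lists across Krt8 and Krt18 (upper panel) and across Tuba1b, Tuba1a and Tuba1c (lower panel), against the distance in kb from the lower-coordinate end of Krt8 or Tuba1b, with these genes in black. Between the keratin genes the mutant H3K27ac list has 5 peaks and the water list 2, and in the lower panel H3K4me3 forms longer blocks in the mutant list.

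The bases under both marks within the windows followed H3K27ac. Bases under both marks numbered 8000 in water and 1071 in mutant embryos at Tubb5, 4672 and 1609 at Cfl1, and 2425 and 1531 at Tuba1b. At Krt18 they numbered 220 and 2498, at Tuba1c 2253 and 4223, and at Pfn1 5060 and 7095. In the water list all H3K27ac window bases of Actb, Pfn1, Tuba1c, Tubb5 and Krt18 also carried H3K4me3. The H3K27ac bases common to both conditions were 1071 at Tubb5, 692 at Tuba1c and 0 at Krt18, whereas H3K4me3 bases common to both were at least 3146 at every gene, the lowest being at Krt8. At Actb and Pfn1, in contrast, all H3K27ac window bases of the water list (4409 and 5060) were also covered in mutant embryos. This holds for the windows only, since the water H3K27ac peak just outside the Actb window, given above, had no counterpart in the mutant list.

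Peak widths were compared next. The widest H3K4me3 peak at a gene end was wider in the mutant list at 7 of 9 genes, against 62.6% of all coding genes with a peak in both lists, and narrower at Tubb5 and Krt8. The widest H3K27ac peak was wider in the mutant list at 3 of 8 genes, against 32.8% of all. Neither count was tested against the background, which the choice of the genes does not allow. The ratio of widths, mutant to water, ran from 0.55 at Krt8 to 8.36 at Tuba1c for H3K4me3. For H3K27ac it ran from 0.04 at Tubb5 and 0.19 at Tuba1b to 33.58 at Krt18, with values above 1 also at Tuba1c (1.23) and at Pfn1, whose widths are given above. At Krt18 the water peak was the one of 220 bp. The widest water peak at Tuba1b, of 29064 bp, lay beyond the gene's 3′ end, and 76.2% of it was covered in the mutant list. A peak wider than 5 kb was found at 8 of 9 genes in both H3K4me3 lists (39% of all coding genes in water and 47.6% in mutant embryos). The exceptions were Tuba1b in water, with 4703 bp, and Krt8 in mutant embryos, with 4606 bp; the nearest above the limit was Tuba1c in water, with 5888 bp. For H3K27ac such peaks were found at 6 genes in water and 5 in mutant embryos (33.8% and 25.3% of all). When peaks less than 1 kb apart were joined, the order turned at Actb for H3K4me3, as given above, and at Actg1 for H3K27ac, with 10986 bp in water and 13600 bp in mutant embryos. With windows of 1 kb the H3K27ac order turned at Tuba1b, with 2425 bp in water and 5507 bp in mutant embryos, and at Tuba1c, with 2253 and 2240 bp.

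**Figure D4:**
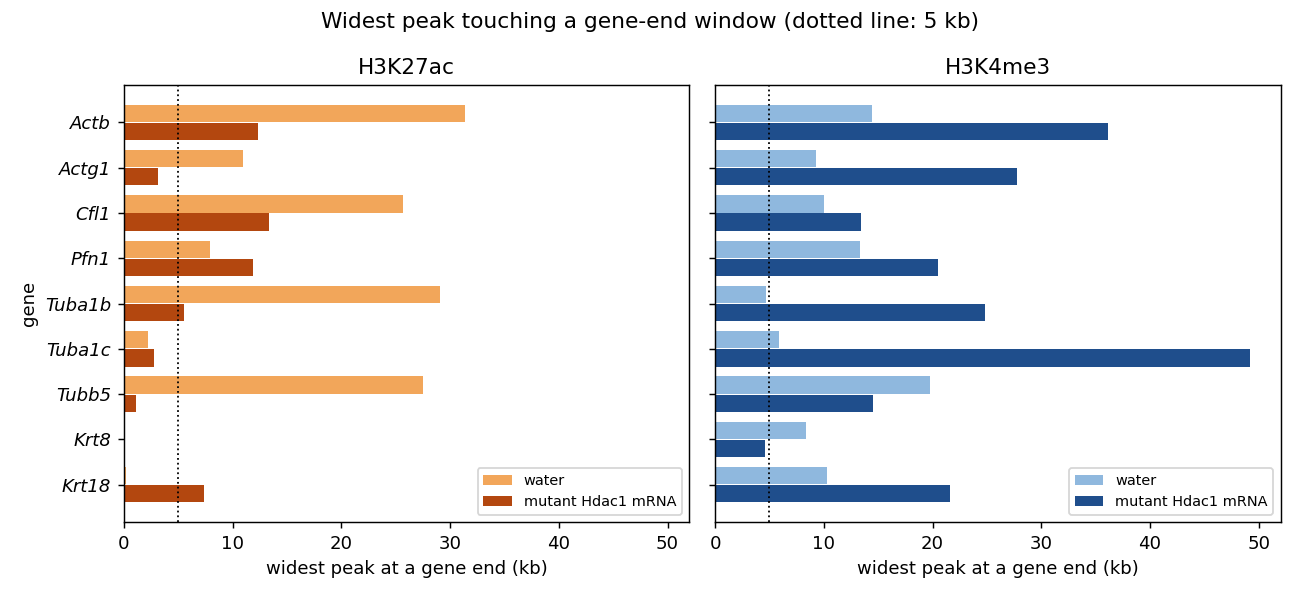
Width in kb of the widest H3K27ac peak (left) and H3K4me3 peak (right) that touches a gene-end window of each gene, with the water list in the light and the mutant list in the dark colour and a dotted line at 5 kb. H3K27ac bars are shorter in the mutant list at 5 genes and H3K4me3 bars longer at 7 genes; the Krt8 H3K27ac value is 0 in both lists.

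Broad H3K4me3 peaks, wider than 5 kb, joined some of these genes with their neighbours, a neighbour being another coding gene with a gene end within 2 kb of the same peak. In the water list 3 of 9 genes were joined (22.4% of all coding genes), namely Cfl1, Pfn1 and Tubb5. In the mutant list 7 were joined (25.9% of all), the same 3 with Actb, Actg1, Tuba1b and Tuba1c. The 3 genes joined in both lists have a neighbour at most 1242 bp away, whereas the nearest neighbours of the other 4 lie 6393 to 15473 bp away. Krt8 has a neighbour too, Krt78 at 86 bp, but its broad water peak lay at its other end. Cfl1 was joined with Mus81, a DNA repair nuclease gene, and Snx32, a sorting nexin gene, in both lists, and with Efemp2, a matrix protein gene, in the mutant list. Pfn1 was joined with the same 5 genes in both lists, namely Eno3, Gp1ba, Rnf167, Slc25a11 and Spag7, through 2 peaks in water and 1 peak of 20485 bp in mutant embryos. Tubb5 was joined with Flot1, which encodes the membrane scaffold protein flotillin, and with Mdc1, a DNA damage response gene, in both lists. The neighbours added in the mutant list were Fbxl18 at Actb, Fscn2 at Actg1, Lmbr1l at Tuba1b and Prph at Tuba1c. Joining of peaks less than 1 kb apart added Actg1 to the water count. The water count also depended on the window: with windows of 5 kb, an alternative chosen after seeing the data, Actb and Actg1 were joined in water too, which made 5 genes in water and 7 in mutant embryos. At Actb this was the water peak over Fbxl18 that stopped 117 bp short of the 2 kb window. Krt8 and Krt18 were joined with no coding gene in either list by this rule, and not with each other.

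Related genes were examined in 3 lists of the same families, chosen by knowledge of the pathway: 37 other genes of actin and its regulators, 26 other genes of tubulin and its cofactors, and 51 other keratin genes. H3K4me3 was present at 36 of 37 actin genes in each list, at 35 of them in both, and H3K27ac at 24 in water and 22 in mutant embryos. For the tubulin list H3K4me3 was present at 25 of 26 genes in water and 24 in mutant embryos, and H3K27ac at 17 and 18. The keratin list had H3K4me3 at 23 of 51 genes in water and 21 in mutant embryos, and H3K27ac at 12 and 17. Over all coding genes the shares in water and mutant embryos were 74.7% and 72.9% for H3K4me3, and 54.8% and 58% for H3K27ac. H3K4me3 peaks wider than 5 kb, which Krt8 and Krt18 both had in water, were found at 3 of the 51 other keratin genes in water and at 12 in mutant embryos. Over all coding genes such peaks were found at 39% in water and 47.6% in mutant embryos.

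**Figure D5:**
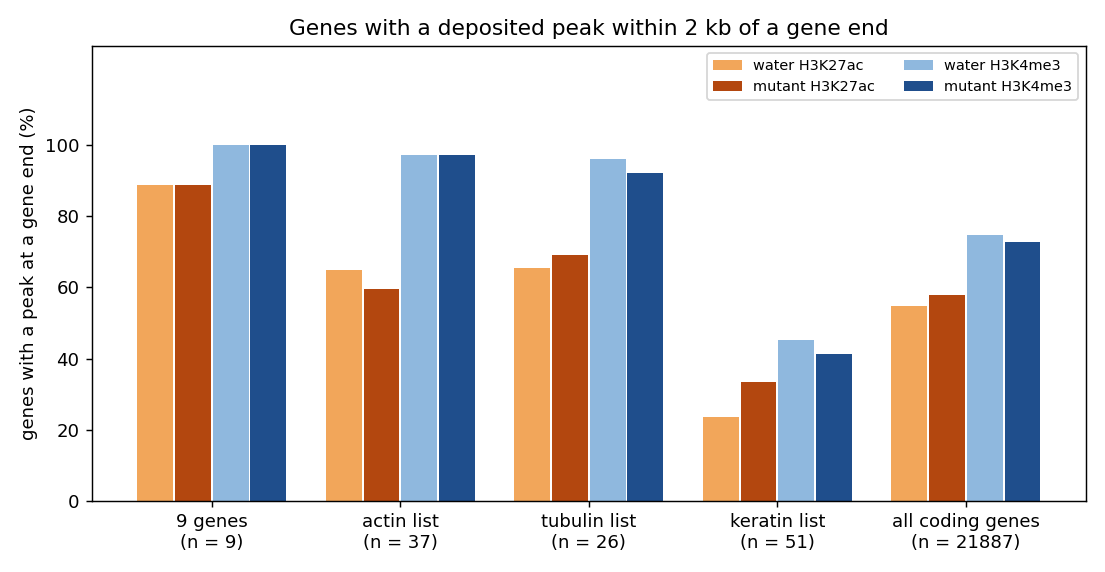
Percent of genes with a peak within 2 kb of a gene end (y axis) in each of the 4 lists, for the 9 genes, the 3 lists of related genes and all 21887 coding genes. The 9 genes stand at 88.9% for H3K27ac and 100% for H3K4me3 in both conditions, and the keratin list lies lowest in all 4 lists.

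More bases were under H3K4me3 in the mutant list at 14 actin genes and fewer at 18, with 10 and 12 for the tubulin list, and the median difference was 0 bp in both. Over all 21887 coding genes the counts were 9114 and 7143, with 5630 equal and a median of 0 bp. In the actin list the largest differences toward more H3K4me3 in the mutant list were at Arpc5, a subunit of the Arp2/3 complex (3221 bases in water and 6847 in mutant embryos), and Acta2, smooth muscle actin (0 and 2794). In the other direction stood the muscle actins Actc1 (3671 and 0) and Acta1 (2978 and 342). In the tubulin list, in the direction of more bases in the mutant list, Tuba4a went from 4000 to 8000 bases, followed by Tuba1a as given above, and the largest differences in the other direction were at Tube1, epsilon-tubulin (3156 and 0), and Tubb1 (7000 and 4000). The widest H3K4me3 peak was wider in the mutant list at 24 of 37 actin genes and narrower at 13, and wider at 13 of 26 tubulin genes and narrower at 13. Over all 21887 coding genes it was wider at 10384, narrower at 7024 and equal at 4479, among them the 4475 with no peak in either list.

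The coding genes whose covered bases over the 4 lists came nearest to the median of the 9 genes, by Euclidean distance of log2(bases + 1), were Cacng7, Rabac1 and Dcaf17, at distances of 0.17, 0.23 and 0.25. For H3K27ac and H3K4me3 in water and mutant embryos, the median of the 9 genes was 3380, 2498, 6141 and 7577 bases, and Cacng7 had 3066, 2525, 5946 and 8000. Likeness over 4 values is a description only.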

How the data were processed

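The data were 4 deposited peak lists, 1 for each mark and condition, with chromosome, start and end of each peak and no other measured value. The submitters' processing notes name Trimmomatic, Bowtie2, SAMtools, Picard, MACS2 and deepTools and the builds mm10 and GRCm38, without versions or roles. The threshold and whether the authors pooled libraries are not given in the sources used here. Peaks on unplaced scaffolds were left out. Gene positions came from the RefSeq table of GRCm38.p6, and start sites and sequences from RefSeq promoter windows of the same build.

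With Python 3.11.15 and numpy, peaks overlapping a gene-end window (2 kb on each side) by at least 1 bp were counted, and covered bases and widths computed; the coverage code was checked on simulated intervals. The lists hold no scores, so no peak could be ranked by strength. The 9 genes and the related lists were chosen with earlier results of these data known. Named genes are the 9, their joined neighbours, the 2 largest H3K4me3 differences in each direction per related list, and the 3 nearest patterns. Outside this rule, Krt78 is named as the nearest neighbour of Krt8, and Krt77 and Krt80 as examples of small peaks.

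Alternatives changed the window, the overlap, the joining and width limits, the width called broad, and the peaks used (wider 50% of each list).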

Additional observations from a re-analysis of the deposited data

How the results depend on the processing

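No paired analysis was possible because the 2 libraries of a group share 1 peak list, and for the same reason no replicate could be left out. The counts of the 9 genes that had a peak, had more covered bases or a wider peak in the mutant list, or were joined with neighbours gave 58 recomputed counts, and 57 stayed within 1.5 times the count reported. Counts of 7 or more, out of 9 genes, could not rise out of that range, so this says little about stability. An equal count can also hold different genes, as with Tuba1b and Tuba1c for the widest H3K27ac peak with windows of 1 kb. The exception was the water count of genes joined with neighbours, 5 in place of 3 with windows of 5 kb. In the start site windows Actb was left out, as it had no promoter entry. There H3K27ac was found at 6 genes in each list in place of 8, and H3K4me3 at 8 in place of 9. In settings other than windows of 5 kb the water count of joined genes was 3 or 4. The mutant count of joined genes was 6 with windows of 1 kb and 7 otherwise. The windows of 1 and 5 kb for joining were chosen after seeing the data. Of 108 recomputed differences in covered bases at single genes, 70 stayed within 1.5 times the value reported, 36 moved further or came to or left 0, and 2 changed sign. Both were at Actb with windows of 5 kb, where the H3K27ac difference was -115 bp in place of 2348 bp and the H3K4me3 difference 57 bp in place of -60 bp. For H3K27ac, these windows took in part of the water peak just outside the 2 kb window, over which the mutant list had no peak. The cause of this difference between the lists was not tested. Differences between lists that reflect unequal sequencing depth or calling limits cannot be told apart from differences between conditions.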

Other observations

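The other keratin genes lie in 2 clusters, type II keratins on chromosome 15, where Krt8 and Krt18 also lie, and type I keratins on chromosome 11. Of 24 other keratin genes on chromosome 15, H3K27ac was present at 5 in water and 10 in mutant embryos, with 4 genes marked in water only and 9 in mutant only. Some of these calls rested on peaks close to the smallest widths, such as 160 bp at Krt80 in the mutant list and 204 bp at Krt77 in water. Over all 21887 coding genes H3K27ac was present at 54.8% in water and 58% in mutant embryos, with 2727 genes marked in water only and 3419 in mutant only. At the 24 genes of chromosome 15, H3K4me3 was present at 15 in water and 11 in mutant embryos, with 5 marked in water only and 1 in mutant only. Over all coding genes H3K4me3 was present at 74.7% and 72.9%, with 1462 marked in water only and 1061 in mutant only. On chromosome 11, H3K27ac was present at 7 of 27 genes in each list, 3 of them in both, and H3K4me3 was present at 8 in water and 10 in mutant embryos. More bases were under H3K4me3 in the mutant list at 9 genes of chromosome 11, fewer at 1 and as many at 17, and at 7, 9 and 8 genes of chromosome 15. Over all coding genes the counts were 9114, 7143 and 5630.

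Single keratin genes differed by several kb. At Krt10, a keratin of differentiating epidermis, H3K4me3 covered 2163 bases in water and 8000 in mutant embryos, and its widest peak measured 3963 and 24229 bp. At Krt24 no base was covered by either mark in water, and 4855 bases by H3K27ac and 5590 by H3K4me3 in mutant embryos. In the other direction, H3K4me3 covered 6193 and 2459 bases at Krt7, a keratin of simple epithelia, although its widest H3K4me3 peak measured 6674 bp in water and 14135 bp in mutant embryos. At Krt79 it covered 3056 and 0 bases.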
